A study of Mus musculus with 8 samples.

Results

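Of the 33435 named genes in the deposited count table, 51 genes of mitosis were examined in mouse myeloid progenitors that carried a Trim27 virus or a control virus. The members were chosen by name and role, as mitotic cyclins and kinases, the spindle checkpoint, anaphase regulators, kinetochore subunits, mitotic kinesins, spindle midzone proteins and condensin I. No measured value entered that rule, but earlier results of these data were known when the members were chosen. All 51 members were in the table, and all 51 passed the filter on low counts, which left 11040 genes for testing. RNA was sequenced from 4 libraries per group. Fetal livers of C57BL/6J mice at E14.5 gave the hematopoietic stem and progenitor cells, which received either a virus that overexpresses Trim27, which encodes a RING-finger protein of the TRIM family of ubiquitin ligases, or a GFP control virus that the design text calls an empty vector. Myeloid progenitors (MPs) were then sorted from the infected cells of both groups, so that strain, age, tissue, infection and sort were common to both groups. The labels name neither the viral promoter nor the surface markers of the sort, and they leave unstated if each library had its own culture or animal. The p-values therefore set the difference between groups against the spread of these libraries only, and the libraries can include technical repeats.

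In mitosis, cyclin-dependent kinase activity and the Polo and Aurora kinases drive chromosome condensation and spindle assembly. Kinetochores, built on centromeric chromatin, attach chromosomes to microtubules, and the spindle checkpoint holds back the anaphase-promoting complex (APC/C) until every chromosome is attached. Kinesin motors then move chromosomes and separate the poles, and the midzone proteins direct cytokinesis. Fetal liver progenitors divide rapidly, and most of these genes are transcribed in a wave late in the cell cycle. In many of their promoters that timing depends on a short element, the cell cycle genes homology region (CHR), often with CCAAT boxes upstream.

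The promoters are shown first, because the CHR was common among the members. RefSeq promoter entries of 300 bases (250 before and 50 after the annotated start, GRCm38.p6) were matched by symbol for 43 of the 51 members. The letters TTTGAA, searched on both strands, were in 31 of these 43 promoters (72.1%) and in 20.2% of the 27025 genes in the same table. In the last 150 bases alone they were in 29 of 43 (67.4%), against 9.23% of all genes. The variant TTCGAA was in 4 of 43 (9.30%, against 1.80% of all genes), and CCAAT, likewise on both strands, was in 32 of 43 (74.4%, against 41.1%). No motif is contained in another, and a match is a description of the sequence, not a measured site. For 11 members the CHR lay within the 60 bases just before the start. Those windows are printed here 5′ to 3′ on the gene's own strand, with the CHR in capitals (TTTGAA, or TTCAAA where it lies on the other strand).
Bub3 (chr7:131560310-131560369, plus strand): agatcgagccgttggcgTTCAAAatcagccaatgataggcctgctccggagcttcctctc
Cdc20 (chr4:118437344-118437403, minus strand): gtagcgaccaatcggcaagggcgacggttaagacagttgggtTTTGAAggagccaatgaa
Cdk1 (chr10:69352913-69352972, minus strand): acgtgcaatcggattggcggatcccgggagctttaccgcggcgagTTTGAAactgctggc
Espl1 (chr15:102296233-102296292, plus strand): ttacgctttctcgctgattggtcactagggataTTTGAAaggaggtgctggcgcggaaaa
Kif11 (chr19:37376322-37376381, plus strand): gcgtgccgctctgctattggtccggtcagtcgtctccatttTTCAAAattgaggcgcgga
Kif15 (chr9:122951021-122951080, plus strand): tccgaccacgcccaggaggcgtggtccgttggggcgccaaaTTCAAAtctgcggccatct
Kif22 (chr7:127042421-127042480, minus strand): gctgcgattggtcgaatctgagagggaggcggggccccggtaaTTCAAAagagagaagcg
Ncapg (chr5:45669865-45669924, plus strand): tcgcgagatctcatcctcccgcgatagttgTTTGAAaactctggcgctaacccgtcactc
Prc1 (chr7:80294416-80294475, plus strand): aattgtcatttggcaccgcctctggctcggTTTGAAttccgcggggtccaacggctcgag
Top2a (chr11:99024190-99024249, minus strand): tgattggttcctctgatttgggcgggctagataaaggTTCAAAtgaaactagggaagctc
Ube2c (chr2:164769869-164769928, plus strand): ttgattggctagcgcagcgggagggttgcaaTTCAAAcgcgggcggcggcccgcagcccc
A whole CCAAT box in either orientation was in 8 of these 11 windows, those of Kif15, Ncapg and Prc1 being without one. This holds for the windows only. The same promoter entry of Prc1 has a CCAAT box at -62 from the start, which the window's edge cuts, and that of Ncapg has one at -176. Of the same 11 genes, 7 were higher with Trim27, 2 (Cdk1 and Ncapg) were lower and 2 (Kif11 and Prc1) did not pass the test. Over all tested genes, which are the background for each such count, 85.5% passed it, 47.5% higher and 38% lower. Across the 43 matched promoters, the members with a CHR had 19 higher, 8 lower and 4 not called, with a median log2 fold change of 0.28. The 12 members without one had 5 higher, 5 lower and 2 not called, with a median of -0.0065. For the CCAAT box the medians lay the other way, at 0.23 for the 32 members with one (18 higher, 9 lower and 5 not called) and 0.55 for the 11 without (6 higher, 4 lower and 1 not called). These are counts over few genes and were not tested.

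Total counts ran from 9257889 to 10747794 in GFP libraries and from 10551137 to 16366571 in Trim27 libraries. Genes with any count numbered 11131 to 11850 in GFP libraries and 12962 to 13283 in Trim27 libraries. At similar totals, GFP replicate 4 (10747794) had 11131 such genes and Trim27 replicate 4 (10551137) had 12962. The part of this difference in the mitotic results was not tested. Levels are in CPM, the counts scaled to a common library size after TMM, and log2 fold changes are Trim27 over GFP from edgeR's quasi-likelihood fit, with p-values adjusted over all tested genes (Benjamini-Hochberg). Trim27 itself was at 191, 184, 177 and 171 CPM in the GFP libraries and 268, 311, 292 and 301 CPM in the Trim27 libraries, so all Trim27 libraries lay above all GFP libraries (log2 fold change 0.70, SE 0.054, adjusted p = 7.4e-13), but the difference was 0.091 and not called (adjusted p = 0.14) with the trend of fold change with transcript length removed. Viral and endogenous Trim27 reads cannot be told apart in these counts. The myeloid progenitor markers were present in all libraries, with Mpo at 527 to 589 against 439 to 507 CPM and Kit at 40.2 to 45.0 against 25.5 to 30.2 CPM (GFP against Trim27). Their summed level over 9 genes was 2015 to 2130.3 CPM against 2242 to 2477 CPM, although only 2 genes were higher and 6 were lower. The 2 higher were Csf2rb, at 457 to 480 against 1133 to 1225 CPM, and Spi1, at 65.1 to 72.3 against 113 to 126 CPM. Of the 6 lower, Prtn3 was at 664 to 713 against 365 to 446 CPM. Erythroid markers (7 genes) summed to 1762 to 1804 CPM with GFP and 1243 to 1413 CPM with Trim27, with 2 higher and 5 lower. Megakaryocyte markers (5 genes, 2 higher and 3 lower) summed to 979 to 1069 and 764 to 792 CPM. Mast cell and basophil markers (5 genes, 4 higher, Prss34 at 0) summed to 126 to 143 and 232 to 248.8 CPM, and B lineage markers (8 genes, 6 lower) to 64.9 to 157 and 40.1 to 54.4 CPM. The T and NK cell markers (5 genes) summed to 27.9 to 30.7 and 1.99 to 3.06 CPM, nearly all of it Lck, and the endothelial and stromal markers (5 genes) to 41.3 to 49.8 and 5.01 to 6.24 CPM, nearly all of it Pdgfrb. The hepatocyte markers (5 genes) summed to 1.196 to 1.70 and 14.3 to 16.4 CPM, from Afp and Apoa1. Alb, Ttr and Hnf4a of the hepatocyte list, Cdh5, Kdr and Col3a1 of the endothelial and stromal list and C1qa, Mrc1, Marco and Cd163 of the macrophage list had 0 counts in all 8 libraries. The remaining macrophage marker, Emr1, was at 0 in the GFP libraries and 9.69 to 11.9 CPM in the Trim27 libraries. The part of these marker differences in the mitotic results was not tested.

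With Trim27, 29 of the 51 mitotic genes were higher and 16 were lower, and 6 did not pass the test. The members' shares were thus 56.9% higher and 31.4% lower, to be read against the 47.5% and 38% of all tested genes. Their median log2 fold change was 0.26, against 0.14 over all tested genes. Groups did not overlap for 42 members (28 higher and 14 lower), a share of 82.4% against 80.7% of all tested genes. A called change of at least 2-fold was seen in 16 of the 51 members that rose and in 3 that fell (Kif18a, Pttg1 and Ttk). Of all 11040 tested genes, 3455 rose and 1769 fell by as much, together 47.3%. In a bulk sample, a change in the number of cells in mitosis and a change in RNA per cell cannot be told apart.

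Summed over the 51 genes, mitotic RNA was 4067, 4113, 4046 and 4034 CPM in the GFP libraries and 4804, 4764, 4770.0 and 4823 CPM in the Trim27 libraries. The groups did not overlap, and the sums within each stayed close together (4065 ± 34.7 and 4790.4 ± 28.0, mean ± SD, n = 4). The balance of calls depended on the scaling. Of the members called, 64.4% were higher with TMM scaling (55.6% over all genes), 83.7% with library totals alone (66.9%) and 46.7% when the trend of fold change with transcript length was removed (47.5%). Library totals alone moved the median of all tested genes from 0.14 to 0.44 and that of the members from 0.26 to 0.56, since such a change shifts all genes alike.

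**Figure D1:**
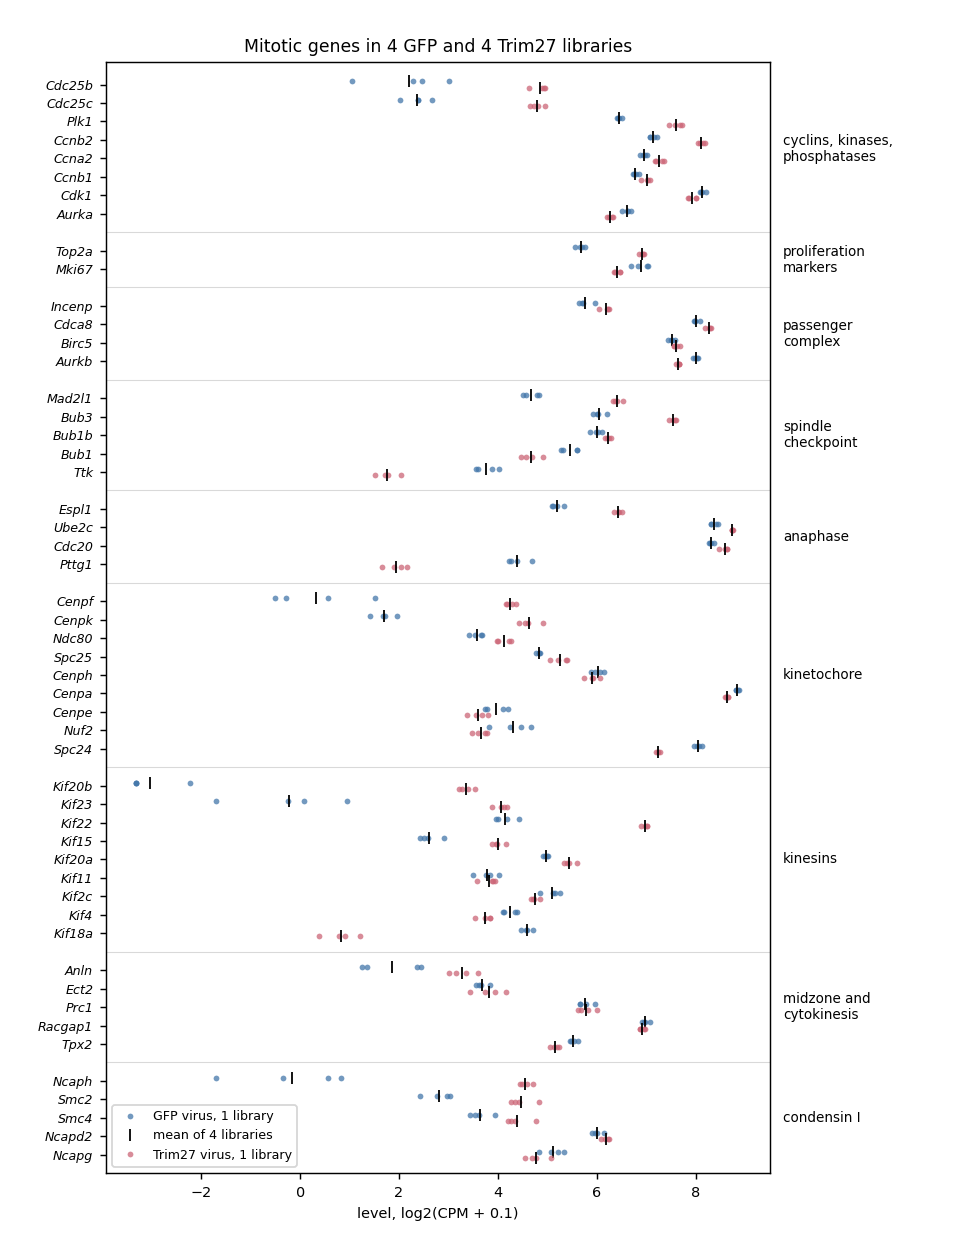
Level of each of the 51 mitotic genes in each library, as log2(CPM + 0.1) on the horizontal axis, grouped by role. Blue points are the 4 GFP libraries, red points the 4 Trim27 libraries, and black ticks the means of the log2 values. By their means, Kif20b, Kif23, Ncaph and Cenpf sit farthest to the left in the GFP libraries and closer to the others in the Trim27 libraries, while Kif18a, Pttg1 and Ttk do the opposite.

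**Figure D2:**
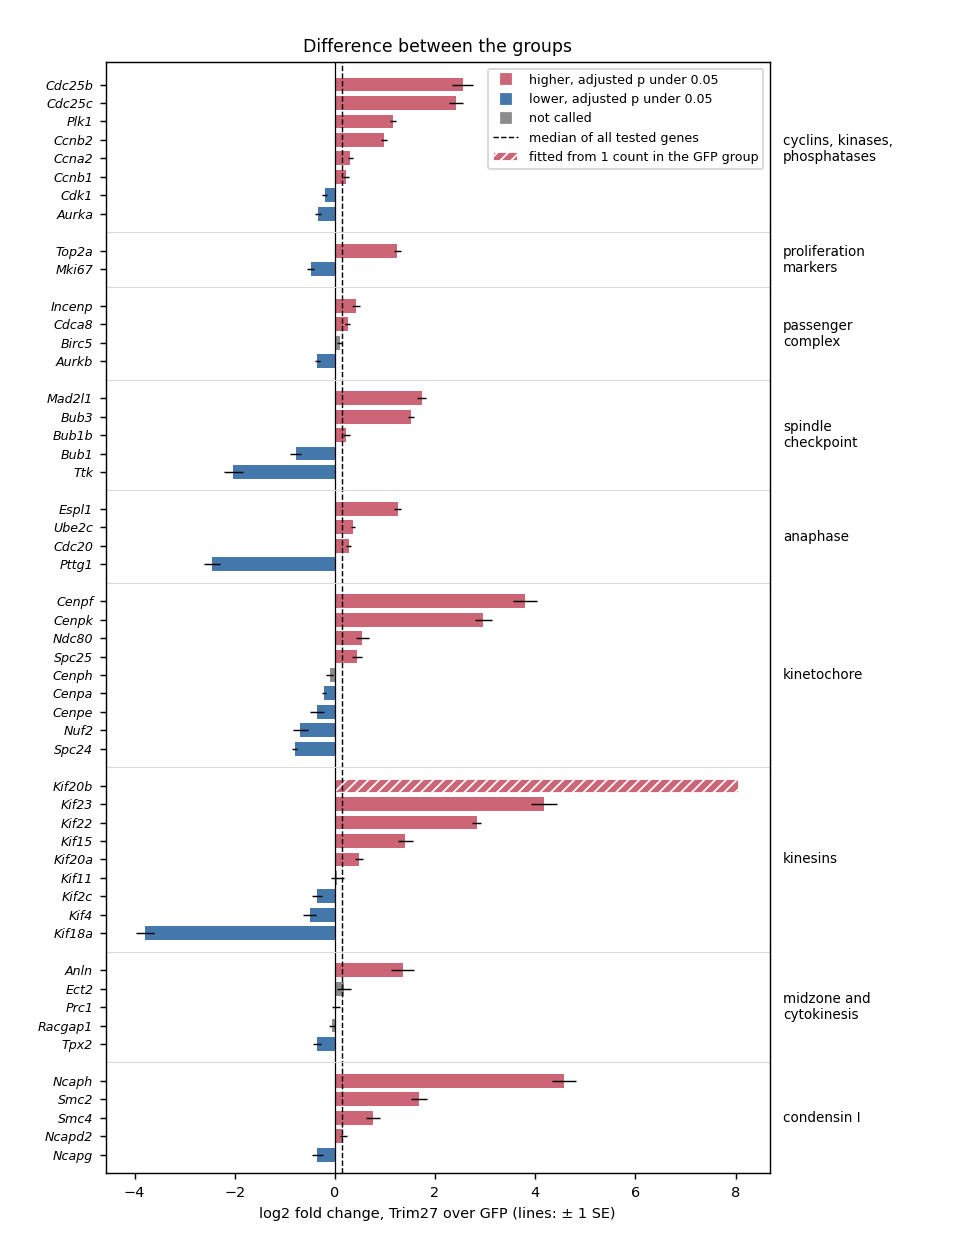
Fitted log2 fold change (Trim27 over GFP) of the 51 mitotic genes, with lines of 1 SE either side. Red bars are called higher, blue bars called lower and grey bars not called at an adjusted p of 0.05, and the dashed line is the median of all tested genes, 0.14. Every role holds genes that were higher and genes that were lower, and the bar of Kif20b is hatched because its fit rests on 1 count in the GFP group.

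The cyclins, kinases and phosphatases that start mitosis were mostly higher, with 6 of 8 rising and 2 falling. The largest rises were those of Cdc25b and Cdc25c, the phosphatases that remove inhibitory phosphate from Cdk1. Cdc25b was at 7.997, 4.79, 5.38 and 1.95 CPM in the GFP libraries and 31.0, 30.5, 29.7 and 24.8 CPM in the Trim27 libraries. The lowest Trim27 library stood well above the highest GFP library, although the GFP values were themselves spread (log2 fold change 2.55, SE 0.22, adjusted p = 2.0e-09). Cdc25c was at 5.14, 5.11, 3.95 and 6.27 CPM in the GFP libraries and 25.0, 30.7, 27.9 and 26.3 CPM in the Trim27 libraries, with tighter groups that did not overlap (log2 fold change 2.42, SE 0.14, adjusted p = 1.2e-15). Plk1, the Polo kinase that acts at centrosomes and kinetochores, was at 91.3, 86.2, 85.3 and 86.9 CPM in the GFP libraries and 177, 211, 204 and 191 CPM in the Trim27 libraries. All Trim27 values were well above all GFP values (log2 fold change 1.16, SE 0.060, adjusted p = 6.0e-17). Ccnb2, which encodes cyclin B2, was at 142, 149, 135 and 135 CPM in the GFP libraries and 269.8, 283, 266 and 289 CPM in the Trim27 libraries, again without overlap (log2 fold change 0.98, SE 0.052, adjusted p = 1.3e-16).

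The other members of this role moved little. Ccnb1, the main mitotic cyclin, was at 107 to 115 CPM in the GFP libraries and 119 to 135 CPM in the Trim27 libraries (log2 fold change 0.23, SE 0.057, adjusted p = 6.7e-04), and Ccna2, the cyclin of DNA replication and mitotic entry, at 117 to 130.01 CPM in the GFP libraries and 144 to 164 CPM in the Trim27 libraries (log2 fold change 0.31, SE 0.057, adjusted p = 1.4e-05). Both rises were small, at 1.17-fold and 1.24-fold, and both turned to falls, of -0.16 and -0.15, when the length trend was removed. Counts of Ccnb1 are uncertain for another reason, since 42.1% of its 50-base words also occur in other genes, chiefly a processed pseudogene. Between the 2 B cyclins, the log2 ratio of Ccnb2 to Ccnb1 counts (1 added to each count) went from 0.35 ± 0.090 in the GFP libraries to 1.11 ± 0.075 in the Trim27 libraries. Cdk1, the catalytic partner of both, was at 272, 294, 277 and 280.1 CPM in the GFP libraries and 257, 228, 234 and 256 CPM in the Trim27 libraries. All Trim27 libraries lay below all GFP libraries, and the gene fell by a small amount (log2 fold change -0.20, SE 0.051, adjusted p = 5.9e-04) that was 0.10 in the other direction with library totals alone. Aurka, the Aurora kinase of the spindle poles, also fell, from 97.6 ± 5.51 to 77.1 ± 2.87 CPM (log2 fold change -0.34, SE 0.062, adjusted p = 9.7e-06), and was no longer called with library totals alone (adjusted p = 0.58).

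The 2 classical proliferation markers moved in opposite directions. Top2a, the topoisomerase that untangles sister chromatids, was at 54.2, 51.7, 50.7 and 46.9 CPM in the GFP libraries and 125, 121, 116 and 121 CPM in the Trim27 libraries. The lowest Trim27 value was more than 2 times the highest GFP value (log2 fold change 1.25, SE 0.063, adjusted p = 4.9e-17). Mki67, which encodes the Ki-67 antigen that coats mitotic chromosomes, was at 103, 131, 113 and 129 CPM in the GFP libraries and 88.1, 89.0, 81.4 and 82.3 CPM in the Trim27 libraries. Here the Trim27 libraries were all lower (log2 fold change -0.48, SE 0.068, adjusted p = 1.7e-07), and the direction was the same under each scaling tried.

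In the chromosomal passenger complex, which corrects faulty attachments and later marks the midzone, the changes were small. Aurkb, its kinase, was at 261, 263, 251 and 248 CPM in the GFP libraries and 194, 203, 201 and 203 CPM in the Trim27 libraries, with no overlap (log2 fold change -0.35, SE 0.048, adjusted p = 9.1e-08), and lost its call with library totals alone (adjusted p = 0.30). Its ratio to Aurka was nearly constant, at a log2 of 1.39 ± 0.057 in the GFP libraries and 1.38 ± 0.072 in the Trim27 libraries. Incenp, the scaffold, was at 49.8 to 62.3 CPM in the GFP libraries and 65.6 to 75.9 CPM in the Trim27 libraries and rose (log2 fold change 0.42, SE 0.075, adjusted p = 7.5e-06), with a value of -0.068 once the length trend was removed. Cdca8, the borealin subunit, rose from 258 ± 9.16 to 308 ± 12.4 CPM (log2 fold change 0.26, SE 0.049, adjusted p = 1.9e-05). Birc5, the survivin subunit, was at 174 to 191 CPM in the GFP libraries and 188 to 204 CPM in the Trim27 libraries, overlapped and did not pass the test (log2 fold change 0.094, SE 0.051, adjusted p = 0.089). It stayed uncalled in only 12 of 21 other settings. In the rest it was called higher, among them DESeq2 size factors, library totals alone and the length trend removed. Its log2 fold change ran from 0.040 to 0.63 over the 21 settings. Per kilobase of transcript, Birc5, Cdca8 and Aurkb were among the most abundant members in both groups, and Incenp stood well below them, at 16.7 ± 1.72 CPM per kb with GFP and 22.4 ± 1.43 with Trim27.

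The spindle checkpoint held some of the clearest contrasts within a single role, with 3 genes higher and 2 lower. Mad2l1 encodes the Mad2 protein that sequesters the APC/C activator. It was at 27.5, 28.4, 23.7 and 22.6 CPM in the GFP libraries and 92.2, 84.5, 80.3 and 82.1 CPM in the Trim27 libraries, and the groups were far apart (log2 fold change 1.73, SE 0.082, adjusted p = 9.7e-18). Bub3, the adaptor that carries the Bub kinases to kinetochores, was at 64.5, 73.5, 64.0 and 60.3 CPM in the GFP libraries and 175, 186, 192 and 195 CPM in the Trim27 libraries, close to 3-fold higher (log2 fold change 1.51, SE 0.063, adjusted p = 5.2e-19). The checkpoint kinases went the other way. Ttk, the kinase at the head of the pathway, was at 11.7, 14.6, 12.0 and 16.0 CPM in the GFP libraries and 4.03, 2.77, 3.203 and 3.31 CPM in the Trim27 libraries (log2 fold change -2.03, SE 0.18, adjusted p = 2.1e-11). Bub1 was at 38.5, 48.6, 48.3 and 39.9 CPM in the GFP libraries and 30.1, 25.8, 22.1 and 23.6 CPM in the Trim27 libraries, also without overlap (log2 fold change -0.78, SE 0.10, adjusted p = 3.9e-08). Bub1b, the BubR1 pseudokinase, rose only from 63.7 ± 4.51 to 74.7 ± 2.85 CPM (log2 fold change 0.23, SE 0.067, adjusted p = 0.0025), and its value was -0.31 with the length trend removed. With these opposite moves the log2 ratio of Bub3 to Bub1 went from 0.58 ± 0.14 in the GFP libraries to 2.89 ± 0.26 in the Trim27 libraries, and that of Mad2l1 to Ttk from 0.92 ± 0.31 in the GFP libraries to 4.65 ± 0.17 in the Trim27 libraries.

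At the onset of anaphase, APC/C with Cdc20 and the conjugating enzyme Ube2c destroys securin, and separase then cuts cohesin. The genes of securin and separase moved apart. Pttg1, which encodes securin, was at 20.7, 19.2, 18.5 and 25.5 CPM in the GFP libraries and 4.39, 3.61, 4.03 and 3.06 CPM in the Trim27 libraries. The GFP values were all several times the Trim27 values (log2 fold change -2.46, SE 0.16, adjusted p = 1.4e-14). Espl1, which encodes separase, was at 40.4, 34.5, 36.6 and 33.8 CPM in the GFP libraries and 81.1, 86.1, 91.2 and 87.7 CPM in the Trim27 libraries, with the Trim27 libraries all higher (log2 fold change 1.25, SE 0.074, adjusted p = 1.3e-15). The log2 ratio of Espl1 to Pttg1 thus went from 0.80 ± 0.27 in the GFP libraries to 4.51 ± 0.25 in the Trim27 libraries. Ube2c and Cdc20 were abundant and rose slightly. Ube2c was at 318, 351, 339 and 319 CPM in the GFP libraries and 429, 425, 427 and 426 CPM in the Trim27 libraries (log2 fold change 0.36, SE 0.047, adjusted p = 3.7e-08), and its 4 Trim27 values were nearly equal. Cdc20 was at 307 to 332 CPM in the GFP libraries and 356 to 398 CPM in the Trim27 libraries (log2 fold change 0.28, SE 0.049, adjusted p = 6.6e-06), a rise that was 0.094 and not called with the length trend removed (adjusted p = 0.094).

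The 9 kinetochore genes were split evenly, with 4 higher, 4 lower and 1 not called, and a median of -0.11. The largest rises were in genes nearly silent in the GFP libraries. Cenpf, a very large protein of the outer kinetochore, was at 2.74, 1.38, 0.598 and 0.720 CPM in the GFP libraries and 20.6, 18.2, 17.7 and 19.3 CPM in the Trim27 libraries. The GFP values rest on 49 counts in all, and no library of one group came near the other (log2 fold change 3.80, SE 0.24, adjusted p = 1.4e-14). Cenpk, a subunit of the constitutive centromere network, was at 3.199, 2.55, 3.11 and 3.80 CPM in the GFP libraries and 30.1, 23.4, 21.5 and 24.2 CPM in the Trim27 libraries (log2 fold change 2.96, SE 0.16, adjusted p = 3.5e-16). Its neighbour in that network, Cenph, was at 58.7 to 70.5 CPM in the GFP libraries and 53.5 to 67.0 CPM in the Trim27 libraries, overlapped and was not called (log2 fold change -0.11, SE 0.076, adjusted p = 0.19). The log2 ratio of Cenpk to Cenph counts therefore moved from -4.31 ± 0.29 in the GFP libraries to -1.28 ± 0.15 in the Trim27 libraries.

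The NDC80 complex, a rod of 4 subunits that binds microtubules, was not moved as a unit. Spc24 was at 262, 250.2, 278 and 267 CPM in the GFP libraries and 155, 147, 151 and 151 CPM in the Trim27 libraries, and all Trim27 libraries were far below all GFP libraries (log2 fold change -0.81, SE 0.050, adjusted p = 4.9e-15). Spc25, with which it pairs, was at 28.4, 27.3, 28.7 and 28.5 CPM in the GFP libraries and 41.8, 32.9, 37.2 and 41.6 CPM in the Trim27 libraries and rose (log2 fold change 0.44, SE 0.092, adjusted p = 7.6e-05). The log2 ratio of Spc24 to Spc25 counts went from 3.22 ± 0.036 in the GFP libraries to 1.98 ± 0.14 in the Trim27 libraries. In the other pair, Ndc80 rose from 11.8 ± 0.966 to 17.3 ± 1.71 CPM (log2 fold change 0.55, SE 0.13, adjusted p = 3.1e-04), a call that was lost with the length trend removed (0.23, adjusted p = 0.095). Nuf2 was at 14.1, 25.4, 22.0 and 18.8 CPM in the GFP libraries and 13.7, 11.1, 11.9 and 13.3 CPM in the Trim27 libraries and fell (log2 fold change -0.69, SE 0.15, adjusted p = 8.0e-05), although its lowest GFP library was close to its highest Trim27 library. Their log2 ratio turned from -0.73 ± 0.25 in the GFP libraries to 0.47 ± 0.043 in the Trim27 libraries.

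Cenpa, the histone variant that marks centromeres, had the highest CPM of all members in the GFP group, at 472, 451, 463 and 450.2 CPM in the GFP libraries and 404, 390.0, 387 and 403 CPM in the Trim27 libraries. It was lower in all Trim27 libraries by a small amount (log2 fold change -0.21, SE 0.045, adjusted p = 7.5e-05), but 0.090 higher with library totals alone. Cenpe, the kinesin-like motor of the kinetochore, was at 13.3 to 18.4 CPM in the GFP libraries and 10.3 to 13.8 CPM in the Trim27 libraries. The groups overlapped, and its call (log2 fold change -0.35, SE 0.14, adjusted p = 0.021) was lost without GFP replicate 1 (-0.27), without GFP replicate 3 (-0.31), without Trim27 replicate 4 (-0.32) and with library totals alone (-0.051).

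Among the 9 mitotic kinesins, 5 rose, 3 fell and 1 was not called, and the size of these differences was wider than in any other role. Kif20b, a motor of late mitosis and cytokinesis, had 1 GFP count, in replicate 1, and 639 Trim27 counts, at 11.4, 9.15, 9.61 and 10.4 CPM. The ratio of the groups was 367, with a 95% counting interval of 65.6 to 14512, which covers counting error only. Kif23, the motor subunit of centralspindlin, was at 1.83, 0.745, 0.957 and 0.206 CPM in the GFP libraries and 18.2, 16.5, 14.6 and 17.3 CPM in the Trim27 libraries. Its GFP values come from 33 counts in all, and all 4 Trim27 values were far above them (log2 fold change 4.17, SE 0.26, adjusted p = 5.7e-15). Racgap1, the other centralspindlin subunit, was at 121 to 135 CPM in the GFP libraries and 117 to 125 CPM in the Trim27 libraries, with overlapping groups and no call (log2 fold change -0.063, SE 0.056, adjusted p = 0.30). The log2 ratio of Kif23 to Racgap1 counts went from -7.19 ± 1.09 in the GFP libraries to -2.86 ± 0.16 in the Trim27 libraries.

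Kif22, a chromokinesin that pushes chromosome arms away from the poles, combined a large change with a high level. It was at 21.2, 15.9, 15.5 and 18.1 CPM in the GFP libraries and 119, 129, 129.6 and 125 CPM in the Trim27 libraries, and had the smallest adjusted p of all members (log2 fold change 2.83, SE 0.083, adjusted p = 3.9e-22). Kif15, which helps to keep the spindle bipolar, was at 7.43, 5.53, 5.26 and 5.86 CPM in the GFP libraries and 17.7, 15.5, 15.7 and 14.6 CPM in the Trim27 libraries (log2 fold change 1.40, SE 0.15, adjusted p = 1.1e-09). Kif11, the principal motor of pole separation, was at 11.1 to 16.1 CPM in the GFP libraries and 11.9 to 15.2 CPM in the Trim27 libraries and not called (log2 fold change 0.051, SE 0.14, adjusted p = 0.73), so the 2 motors of spindle bipolarity gave different values. Kif20a, which carries the passenger complex to the midzone, rose from 31.2 ± 1.07 to 43.4 ± 3.67 CPM (log2 fold change 0.48, SE 0.085, adjusted p = 7.7e-06) but not with the length trend removed (0.0040, adjusted p = 0.97), and 21.6% of its 50-base words are shared with Cdc23, whose exons overlap its own on the opposite strand. The strand setting of the counting is not given in the sources used here, so reads of such pairs cannot be told apart. Exons of Ccna2 (with Exosc9), Ube2c (with Tnnc2), Prc1 (with Rccd1) and Ncapg (with Lcorl) overlap an opposite gene in the same way.

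Kif18a, the motor that damps chromosome oscillation at the metaphase plate, showed the largest fall of all members. It was at 25.9, 22.1, 24.0 and 23.4 CPM in the GFP libraries and 2.23, 1.204, 1.77 and 1.61 CPM in the Trim27 libraries. The lowest GFP value was almost 10 times the highest Trim27 value (log2 fold change -3.80, SE 0.18, adjusted p = 5.1e-18). Kif2c, a microtubule depolymerase of centromeres, was lower at 28.8 to 38.0 against 25.3 to 28.6 CPM (log2 fold change -0.36, SE 0.10, adjusted p = 0.0012). The chromokinesin Kif4 was lower at 17.0 to 20.9 against 11.5 to 14.1 CPM (log2 fold change -0.51, SE 0.12, adjusted p = 4.8e-04). Both lost their calls with library totals alone (adjusted p = 0.62 and 0.13), and Kif4 overlaps Pdzd11 on the opposite strand.

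Of the roles as grouped here, midzone and cytokinesis had the smallest share of calls, with 3 of 5 not called. Kif20a, Kif20b and Kif23, which also act in these steps and rose, were counted with the kinesins. Prc1, which bundles midzone microtubules, was at 50.1 to 62.0 CPM in the GFP libraries and 49.0 to 64.3 CPM in the Trim27 libraries (log2 fold change 0.025, SE 0.086, adjusted p = 0.79), and 26.6% of its 50-base words occur elsewhere, mostly in Rccd1. Ect2, the exchange factor that activates RhoA at the cleavage plane, was at 11.7 to 14.2 CPM in the GFP libraries and 10.8 to 17.9 CPM in the Trim27 libraries (log2 fold change 0.18, SE 0.15, adjusted p = 0.25). Both genes, like Racgap1, had overlapping groups. Tpx2, which activates Aurka on spindle microtubules, fell from 46.0 ± 2.31 to 35.6 ± 2.04 CPM (log2 fold change -0.37, SE 0.080, adjusted p = 1.3e-04) and was not called with library totals alone (adjusted p = 0.46). The only called rise among these 5 was that of Anln, the contractile ring scaffold anillin. Anln was at 5.03, 5.32, 2.27 and 2.47 CPM in the GFP libraries and 8.72, 8.01, 10.1 and 12.1 CPM in the Trim27 libraries (log2 fold change 1.35, SE 0.23, adjusted p = 4.0e-06). Its GFP libraries formed a higher and a lower pair, both below all Trim27 libraries.

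Condensin I compacts chromosomes with an SMC pair, Smc2 and Smc4, that it shares with condensin II, and with 3 subunits of its own. Ncaph, the kleisin that closes the ring, was at 0.685, 1.38, 1.67 and 0.206 CPM in the GFP libraries and 23.8, 21.6, 22.3 and 25.9 CPM in the Trim27 libraries. Its 35 GFP counts stood against 1462 Trim27 counts (log2 fold change 4.58, SE 0.24, adjusted p = 1.2e-16). Ncapd2 and Ncapg, the subunits that bind DNA beside it, were present in both groups. Ncapd2 was at 59.8 to 70.7 CPM in the GFP libraries and 67.5 to 75.8 CPM in the Trim27 libraries, overlapped, and had a call (log2 fold change 0.17, SE 0.069, adjusted p = 0.023) that was lost when GFP replicate 2 or 3 or Trim27 replicate 2, 3 or 4 was left out (0.12 to 0.15) and turned to -0.49 with the length trend removed. Ncapg was lower at 28.5 to 40.3 CPM in the GFP libraries and 23.4 to 33.4 CPM in the Trim27 libraries, likewise with overlap (log2 fold change -0.35, SE 0.11, adjusted p = 0.0055), and was not called with library totals alone (adjusted p = 0.74). The log2 ratio of Ncaph to Ncapd2 counts went from -6.16 ± 1.19 in the GFP libraries to -1.63 ± 0.13 in the Trim27 libraries, and that of Ncaph to Ncapg from -5.26 ± 1.31 in the GFP libraries to -0.22 ± 0.19 in the Trim27 libraries.

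Both shared subunits rose. Smc2 was at 7.77, 8.09, 5.26 and 6.68 CPM in the GFP libraries and 28.2, 20.1, 21.4 and 19.2 CPM in the Trim27 libraries (log2 fold change 1.67, SE 0.15, adjusted p = 3.3e-11). Smc4 was at 12.2, 15.2, 10.8 and 11.5 CPM in the GFP libraries and 27.01, 19.0, 20.1 and 18.3 CPM in the Trim27 libraries, with a smaller difference (log2 fold change 0.77, SE 0.14, adjusted p = 1.1e-05) that was not called with the length trend removed (0.14, adjusted p = 0.34). The log2 ratio of Smc2 to Smc4 counts went from -0.84 ± 0.16 in the GFP libraries to 0.074 ± 0.012 in the Trim27 libraries, and the 4 Trim27 ratios were nearly identical. The 3 subunits that belong to condensin II alone all fell, although Ncapd3 was not called with library totals alone (log2 fold change -0.28, adjusted p = 0.090). Ncaph2 was at 276 to 295 CPM in the GFP libraries and 144 to 161 CPM in the Trim27 libraries (log2 fold change -0.89, SE 0.051, adjusted p = 9.5e-16). Ncapg2 fell from 41.9 ± 4.94 to 12.8 ± 2.30 CPM (log2 fold change -1.70, SE 0.12, adjusted p = 4.8e-14), and Ncapd3 from 15.5 ± 2.24 to 10.3 ± 1.97 CPM, with overlapping groups (log2 fold change -0.59, SE 0.15, adjusted p = 7.3e-04). The kleisins of the 2 complexes, Ncaph and Ncaph2, thus moved in opposite directions. Of the Ncaph2 exon bases, 19.7% overlap Sco2 and 12.7% overlap Tymp on the opposite strand. With the strand setting not given, reads of these genes cannot be told apart there.

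**Figure D3:**
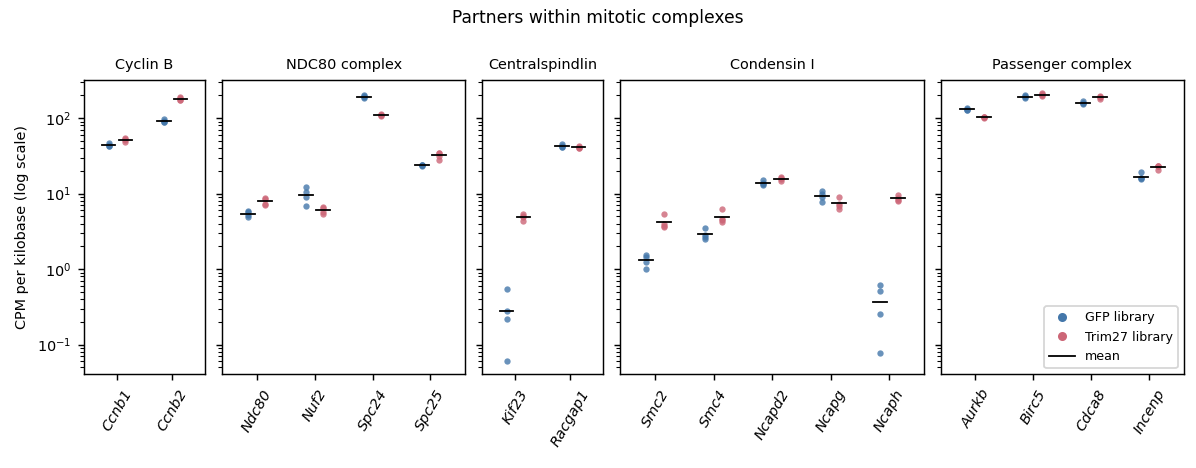
CPM per kilobase of transcript (log axis) of genes whose products sit in one complex, in each GFP library (blue) and Trim27 library (red), with the mean as a bar. Kif23 and Ncaph lie below their partners in the GFP libraries. In the Trim27 libraries Kif23 lies nearer to Racgap1, and the mean of Ncaph lies above those of Smc2, Smc4 and Ncapg and below that of Ncapd2. Spc24 stays above Spc25 in both groups, and Ndc80 and Nuf2 exchange order.

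On a per-kilobase scale, which allows levels of different genes to be compared, 7 members were above 100 CPM per kb in both groups. Ube2c was the highest, at 343 ± 16.9 CPM per kb with GFP and 441 ± 1.87 with Trim27. It was followed by Cenpa (313 ± 7.10 CPM per kb with GFP and 270.0 ± 5.98 with Trim27). Birc5, Cdc20, Cdca8, Spc24 and Aurkb made up the rest. In the GFP group Spc24 and Birc5 did not differ beyond their spread (193 ± 8.30 and 193 ± 7.12 CPM per kb), whereas in the Trim27 group Spc24 stood at 111 ± 2.41 and Birc5 at 206 ± 8.005. At the other end, 5 members were under 1 CPM per kb in the GFP group (Kif20b, Cenpf, Kif23, Ncaph and Anln) and only Kif18a was so in the Trim27 group. Of these, Ncaph went from 0.366 ± 0.247 to 8.67 ± 0.708 CPM per kb. Transcript lengths come from GENCODE M21, which is not the annotation of the deposited counts. The count of 7 rests on the length used for Cdk1, whose principal transcripts have 1253 and 4375 bases. The longer one, used here, put Cdk1 at 64.2 CPM per kb with GFP and 55.8 with Trim27, and the shorter one would put it at 224 and 195, making 8 members above 100.

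The size of the difference was tied to the level, in the members as in all genes. Across the 51 members, the absolute log2 fold change and the mean log2 CPM over the 8 libraries had a Spearman correlation of -0.52, and over all 11040 tested genes of -0.51. These are correlations across genes, which share their libraries and are not independent replicates. Among the 17 members with a mean under 4 log2 CPM, 9 were higher and 6 lower, with a median absolute difference of 1.67 (2.08 over all genes at that level). Among the 20 members at 6 log2 CPM or more, 12 were higher and 6 lower, while 30.7% of all genes at that level were higher and 56.3% lower. The median of these abundant members was 0.23, against -0.23 for all genes as abundant.

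**Figure D4:**
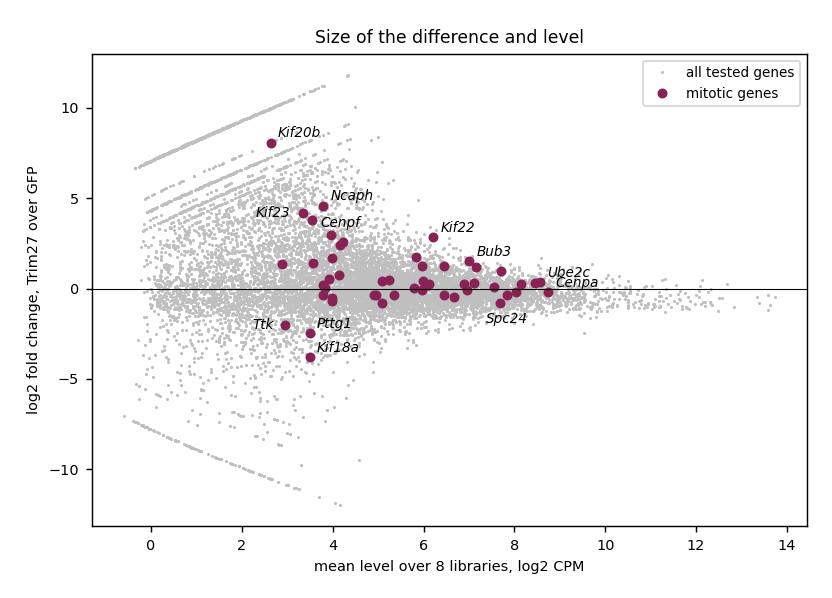
Fitted log2 fold change (Trim27 over GFP) against mean level over the 8 libraries in log2 CPM, for all 11040 tested genes (grey) and the 51 mitotic genes (purple). Large differences lie at low levels in both sets, and above 6 log2 CPM most grey points lie below 0 while 12 of the 20 purple points are called higher.

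Transcript length went with the direction of change over all genes more than over the members, with Spearman correlations of 0.25 and 0.092 between log2 fold change and log2 length. All genes under 2000 bases had a median of -0.27, while the 15 members as short had a median of 0.26, with 8 higher and 5 lower. From 4000 bases up, the medians were 0.77 for 15 members and 0.66 for all genes. The part of length in these results was not tested beyond the fit with the length trend removed, in which 21 members were higher and 24 lower, with a median of -0.021 against -0.071 for all genes.

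Neighbouring parts of the pathway were counted in the same way, over lists chosen by name. Regulators of the mitotic programme had 11 of 17 tested genes higher, 5 lower and 1 not called. Wee1, the kinase that places the inhibitory phosphate on Cdk1, had 1 GFP count and 757 Trim27 counts, a ratio of 435 with a 95% counting interval of 77.8 to 17188. Its opponents Cdc25b and Cdc25c also rose in the same libraries. Lin54, the DNA-binding subunit of the complex that recognises the CHR, had 2 counts against 795, a ratio of 228 (63.0 to 1888). E2f7, a repressor of the E2F family, was at 2.06, 1.81, 0.478 and 0.514 CPM in the GFP libraries and 19.3, 19.6, 19.2 and 19.6 CPM in the Trim27 libraries (log2 fold change 3.99, SE 0.24, adjusted p = 2.2e-15). Fbxo5, an inhibitor of APC/C, rose from 24.2 ± 2.26 to 64.4 ± 8.16 CPM (log2 fold change 1.41, SE 0.093, adjusted p = 2.1e-14). E2f4, a repressor found in the same complex as Lin54, was at 207 to 234 CPM in the GFP libraries and 203 to 237 CPM in the Trim27 libraries and was not called (log2 fold change 0.050, SE 0.056, adjusted p = 0.40).

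Of 19 other spindle and cytokinesis genes tested, 10 were higher, 6 lower and 3 not called. Ckap5, a microtubule polymerase, was at 6.28, 5.96, 6.82 and 6.17 CPM in the GFP libraries and 67.3, 62.9, 57.2 and 66.5 CPM in the Trim27 libraries, the smallest p of this list (log2 fold change 3.33, SE 0.11, adjusted p = 1.5e-21). Tacc3, which binds it on spindle fibres, rose from 33.3 ± 1.60 to 119 ± 4.34 CPM (log2 fold change 1.84, SE 0.067, adjusted p = 2.7e-20). Nusap1 and Spag5, both spindle-associated proteins, rose with log2 fold changes of 2.47 and 2.94. Numa1, which anchors the spindle at the cell cortex, was at 119.6 to 129 CPM in the GFP libraries and 123 to 132 CPM in the Trim27 libraries and was not called (log2 fold change 0.028, SE 0.054, adjusted p = 0.64).

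The 26 other kinetochore genes had 13 higher, 11 lower and 2 not called, with a median of 0.35, where the 9 kinetochore members had 4 higher, 4 lower and a median of -0.11. The 4 with the smallest p were all lower. Pmf1 and Nsl1 encode subunits of the MIS12 complex, the platform for NDC80. Pmf1 was at 324 to 355 CPM in the GFP libraries and 146 to 175 CPM in the Trim27 libraries (log2 fold change -1.07, SE 0.055, adjusted p = 5.7e-17), and Nsl1 at 32.0 to 35.9 CPM in the GFP libraries and 7.98 to 10.5 CPM in the Trim27 libraries (log2 fold change -1.81, SE 0.11, adjusted p = 5.1e-15). Cenpw and Cenpu, of the centromere network that also holds Cenph and Cenpk, fell as well. Cenpw went from 219.8 ± 9.83 to 107 ± 6.87 CPM (log2 fold change -1.03, SE 0.056, adjusted p = 2.0e-16) and Cenpu from 17.2 ± 2.33 to 2.33 ± 0.253 CPM (log2 fold change -2.87, SE 0.18, adjusted p = 4.0e-15), the latter in contrast with the rise of Cenpk. Cenpu shares 26.7% of its exon bases with Primpol on the opposite strand, and the strand setting of the counting is not given.

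Of 15 APC/C subunits and its extending enzyme, 6 were higher, 5 lower and 4 not called. Anapc11, the catalytic RING subunit, was at 152 to 167 CPM in the GFP libraries and 60.6 to 70.9 CPM in the Trim27 libraries (log2 fold change -1.26, SE 0.060, adjusted p = 1.0e-17). Ube2s, which extends the ubiquitin chains that Ube2c starts, fell from 253 ± 7.32 to 123 ± 8.39 CPM (log2 fold change -1.04, SE 0.054, adjusted p = 8.1e-17), so the 2 conjugating enzymes of the complex moved in opposite directions. Anapc10, a substrate receptor, rose from 6.83 ± 0.963 to 15.9 ± 3.74 CPM (log2 fold change 1.21, SE 0.17, adjusted p = 1.5e-07). Cohesin and its regulators, the substrate of separase, had 6 of 12 higher, 4 lower and 2 not called. Smc1a, a core subunit, was at 27.1 to 29.8 CPM in the GFP libraries and 86.3 to 93.9 CPM in the Trim27 libraries (log2 fold change 1.67, SE 0.072, adjusted p = 1.3e-18). Pds5b, a regulator of its release and protection, was at 2.28, 1.70, 1.08 and 1.03 CPM in the GFP libraries and 28.4, 24.3, 26.4 and 25.9 CPM in the Trim27 libraries (log2 fold change 4.10, SE 0.18, adjusted p = 3.1e-18), and Wapal, which releases cohesin from chromosome arms, rose 2.83-fold, from 29.5 ± 1.24 to 83.5 ± 11.3 CPM (adjusted p = 8.7e-16). Esco2, which acetylates cohesin during replication, was at 28.1 to 36.5 CPM in the GFP libraries and 7.51 to 10.3 CPM in the Trim27 libraries and fell (log2 fold change -1.86, SE 0.13, adjusted p = 4.1e-14).

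Of 29 transport and other kinesins, 14 passed the filter and 12 had no count in any library. Among the 14, 8 were higher, 4 lower and 2 not called. Kif3b, a motor subunit of heterotrimeric kinesin, was at 1.37, 0.851, 1.55 and 0.617 CPM in the GFP libraries and 10.5, 10.1, 11.3 and 11.9 CPM in the Trim27 libraries (log2 fold change 3.33, SE 0.24, adjusted p = 1.7e-13). Kifap3, the accessory subunit of that same motor, had 801 GFP counts and 4 Trim27 counts, and it fell to nearly nothing (log2 fold change -8.23, SE 0.32, adjusted p = 9.1e-20). The 2 subunits thus moved in opposite directions, with a far larger change in Kifap3. Kif16b, an endosomal motor, rose from 0.386 ± 0.392 to 14.502 ± 1.77 CPM (log2 fold change 5.19, SE 0.31, adjusted p = 2.2e-15).

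The genes of G1, the phase in which cells commit to division, leaned the other way, with 3 of 13 higher, 9 lower and 1 not called and a median of -0.41. Ccne1, the cyclin of entry into S phase, was at 199.9, 190.3, 219.8 and 189.8 CPM in the GFP libraries and 81.3, 85.1, 83.4 and 87.6 CPM in the Trim27 libraries (log2 fold change -1.25, SE 0.057, adjusted p = 5.0e-18). Cdkn1a, the p21 inhibitor of cyclin-dependent kinases, was at 41.6, 41.8, 41.8 and 40.0 CPM in the GFP libraries and 84.8, 96.2, 95.4 and 96.8 CPM in the Trim27 libraries and rose (log2 fold change 1.18, SE 0.069, adjusted p = 1.1e-15). Another inhibitor, Cdkn2c, fell from 15.2 ± 1.80 to 1.97 ± 0.759 CPM (log2 fold change -2.93, SE 0.21, adjusted p = 1.4e-13), and Rbl2, a pocket protein of quiescent cells, from 22.1 ± 1.82 to 5.36 ± 0.811 CPM (log2 fold change -2.03, SE 0.14, adjusted p = 9.5e-14). Rb1, the retinoblastoma gene itself, was at 7.29 to 12.1 CPM in the GFP libraries and 8.79 to 14.0 CPM in the Trim27 libraries and was not called (log2 fold change 0.088, SE 0.18, adjusted p = 0.64). Over all 119 tested genes of these neighbouring lists, 57 were higher, 47 lower and 15 not called, with a median of 0.12, close to the 0.14 of all tested genes.

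Scaling moved these neighbouring lists as it moved the members. With library totals alone the other kinetochore genes had 16 higher and 6 lower, the APC/C list 9 higher and 2 lower, and the G1 list still had more lower (7) than higher (4), at a median of -0.11. With the length trend removed the medians of the spindle, kinetochore, APC/C and cohesin lists were below 0 (-0.021, -0.010, -0.29 and -0.33), and that of the regulators was 0.89. E2f4, Numa1 and Rb1 were called higher with library totals alone (log2 fold changes 0.35, 0.33 and 0.39) and lower with the length trend removed (-0.20, -0.82 and -0.58).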

How the data were processed

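The measurements are raw counts from the authors' single deposited table, in which gene symbols are rows and the 8 libraries of polyadenylated RNA are columns. Per the submitters' processing notes, bcl2fastq, HISAT2 and featureCounts were used with the genome build NCBIM37. Versions, annotation, strand and multi-mapping settings: not given in the sources used here. Small counts (1 to 10) were even in 64.7% to 72% of cases per library, as when both mates are counted, so independent fragments may be fewer. One unnamed line with 0 counts was left out.

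Counts were fitted in R 4.3.3 with edgeR 4.0.16 (filterByExpr with minimum count 10 and minimum total count 15, TMM, robust quasi-likelihood test, no covariate, 2-sided, Benjamini-Hochberg over 11040 genes, threshold 0.05). The script was tested on simulated data. The members and gene lists were chosen with earlier results of these data known, and all 51 members were to be described. Of each other list, the rule named up to 4 called genes with the smallest p and up to 2 uncalled genes with the largest, and some of these stand only in the counts. Cdkn2d and Hbb-b1 were not analysed here. Knl1 was matched as Casc5 and Adgre1 as Emr1. Lengths (shortest principal transcript of best support) and exon overlaps came from GENCODE M21, and promoter sequences from RefSeq (GRCm38.p6). The last 30 bases of 21 of 24 member entries on each strand matched a transcript. DESeq2 1.42.0 and limma 3.58.1 gave alternatives.

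Chi-square per degree of freedom was 2.61 to 10.6 between libraries of a group and 111 to 139.8 between groups. Within groups, pairs with Trim27 replicate 1 gave 6.42 to 10.6, and all other pairs 2.61 to 4.96. Counting both mates would raise these values, and such spread cannot tell technical repeats from separate cultures or animals. Each library was counted as 1 replicate.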

Additional observations from a re-analysis of the deposited data

Results flagged for a closer look

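Each gene named in the text or in a list beside it was examined for a library standing apart from the other 3 of its group, which is a gap of most of the group's range. Of 194 groups of 4 examined, 15 had such a library. In 3 of these (Kif20b, Wee1 and Lin54 with GFP) the other 3 libraries had no count, so that any count stands apart. Chance gives about 1 in 20 for groups of continuous values, to be set against the other 12. Trim27 replicate 1 gave 4 of them. It was lowest for Aurkb, the passenger complex kinase (194 CPM, the others 201 to 203), lowest for Incenp (65.6, the others 74.2 to 75.9), highest for Fbxo5 (76.6, the others 59.2 to 61.4) and lowest for Cdkn1a (84.8, the others 95.4 to 96.8). In each of these 4 genes the groups did not overlap. GFP replicate 1 was highest for Cdca8 (271 CPM, the others 251 to 254) and Anapc16 (113, the others 108 to 109). It also held the single GFP count of Kif20b and that of Wee1 (0.114 CPM each, the others 0). GFP replicate 2 held both GFP counts of Lin54 (0.213 CPM, the others 0). Trim27 replicate 4 was lowest for Kif11 (11.9 CPM, the others 14.7 to 15.2) and for Cenpu (1.95, the others 2.41 to 2.48). GFP replicate 4 was highest for Cenpu (20.7 CPM, the others 15.8 to 16.3) and Rbl2 (24.8, the others 21.02 to 21.3), and lowest for Zwilch (6.99, the others 10.6 to 10.8) and Cdkn1a (40.0, the others 41.6 to 41.8).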

How the results depend on the processing

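Of the 51 mitotic genes, 22 kept their call in each of the 21 other settings that tested them, 17 higher and 5 lower. Scaling by DESeq2 size factors or upper quartiles gave medians of 0.29 and 0.31, no filter 0.29 and DESeq2's Wald test 0.30, each with 30 members higher and 16 lower. With library totals alone 36 were higher and 7 lower (median 0.56), and Cdk1 (0.10), Cenpa (0.090), Cenph (0.20) and Racgap1 (0.24) reversed. With the length trend removed 21 were higher and 24 lower, the median was -0.021, and Ccna2 (-0.15), Ccnb1 (-0.16), Incenp (-0.068), Bub1b (-0.31), Kif11 (-0.63), Prc1 (-0.44), Ect2 (-0.42) and Ncapd2 (-0.49) reversed. A filter of 10 CPM in 4 libraries left 3453 genes called higher, with fewer genes tested. A test against 1.5-fold called 17 members higher (77.3% of calls) and 5 lower, and 2452 genes lower. The cause of the differences between scalings was not tested.

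Of 2 alternatives chosen after seeing the data, a length trend fitted on abundant genes gave a median of 0.41, with Cenpa (0.034) and Cenph (0.24) reversed. Fitting only genes of at least 6 log2 CPM gave 14 of 20 members higher (82.4% of calls) and 3 lower (median 0.47), against 1145 genes higher and 1125 lower, with Cdk1 (0.034), Cenpa (0.024) and Racgap1 (0.17) reversed.

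Leaving out 1 library at a time gave medians of 0.22 to 0.27, 28 to 29 members higher and 15 to 17 lower. Only Cenpe and Ncapd2 lost a call. Libraries with the same replicate number did not deviate together (correlations of -0.035 to 0.021), so the numbers were not taken to pair them, and a fit with the number as a block called 29 members higher and 16 lower (median 0.26). Limma-voom and halved counts each gave the same counts as that block. In the last 150 promoter bases the TTCGAA variant was in 2 members. For genes with few GFP counts (Kif20b, Kif23, Ncaph, Cenpf) the fold changes are imprecise, and the interval given for Kif20b covers counting error only. The cause of their low GFP counts was not tested.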
